A study of Mus musculus with 8 samples.

Results

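Sugar handling genes, 8 in number, were followed here, and all 8 were found by symbol among the 25239 genes of the deposited table and received an adjusted p: Slc5a1, Slc2a2, Slc2a5, Khk, Slc37a4, Pck1, Fbp1 and Mlxipl. They carry glucose and fructose across the enterocyte, start fructose breakdown, take part in making and releasing glucose, or sense sugar in the nucleus. The data were bulk RNA-seq of crypt epithelium from the proximal small intestine (intestinal epithelial cells, IECs), sorted as EpCAM+ cells lacking CD45, CD31 and Ter119, with 150000 cells per sample. WT mice (C57BL/6Jax) gave 4 samples, and mice labelled CD1d1/2 KO, called CD1d-KO here, gave 4. CD1d displays lipid antigens for natural killer T (NKT) cells, so the knockout lacks CD1d in every cell and lacks NKT cells, and an effect of either cannot be told apart. The mice were untreated adults. The study's methods describe genotypes matched for age and sex, but the sex-linked counts given below differ between the groups. Per the study's methods, the 8 samples came from 4 mice of each genotype, and the labels give neither the experiment nor the sex of a sample.

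In the small intestine, SGLT1 (Slc5a1) takes up glucose and galactose with sodium at the brush border, GLUT5 (Slc2a5) takes up fructose there, and GLUT2 (Slc2a2) passes sugars to the blood. Ketohexokinase (Khk) phosphorylates fructose, the first step of its breakdown. The enterocyte can also make glucose, through phosphoenolpyruvate carboxykinase (Pck1), fructose-1,6-bisphosphatase (Fbp1) and glucose-6-phosphatase, which is fed by the glucose-6-phosphate carrier of the endoplasmic reticulum (Slc37a4). ChREBP (Mlxipl) pairs with Mlx and switches on genes of sugar use and fat synthesis when sugar is plentiful.

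Total counts per sample ranged from 23610266 to 31629435. Cd1d1 had normalised counts of 0 to 7.2 in CD1d-KO and 61.1 to 91.1 in WT. Of the epithelial marker list, 0 of 8 genes were called different, and the defining markers Epcam and Vil1 were abundant in every sample. CD1d-KO samples 1 and 2 carried Y-linked counts, while CD1d-KO samples 3 and 4 and all WT samples carried Xist. By these counts sex was not matched between the sequenced groups and is partly confounded with genotype. Results are therefore also given without CD1d-KO samples 1 and 2, in a fit that keeps only CD1d-KO samples 3 and 4 beside all WT samples. Stomach genes stood apart between genotypes, with summed normalised counts of 829 to 1724 in CD1d-KO and 2665 to 17528 in WT, and 6 of 12 tested genes called, 5 of them lower in CD1d-KO. Gkn1 was at 0 to 0.9 in CD1d-KO samples 1 to 3, at 92.2 in CD1d-KO 4 and at 298.5 to 2634 in WT. Leukocyte markers summed to 902 to 1079 in CD1d-KO and 1116 to 2533 in WT, and 5 of 13 tested genes were called, all lower in CD1d-KO. Fewer cells of a type and less RNA per cell cannot be told apart in bulk samples.

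Of the 8 genes, 2 were called at an adjusted p under 0.05 (DESeq2 with Benjamini-Hochberg adjustment over 15446 genes), both higher in CD1d-KO, and 0 were lower. These were Pck1 and Fbp1, 2 enzymes of gluconeogenesis. Of all tested genes, 1.65% were called higher, 2.38% lower and 4.03% in either direction. Both calls lay close to the threshold and neither was kept by edgeR's quasi-likelihood test, which called 0 of the 8 genes and 1.66% of the genes it tested. On counts simulated from these samples, DESeq2 made a larger share of false calls than its nominal rate in every draw and edgeR stayed nearer to it. The 3 sugar carriers of the cell membrane, Khk, Slc37a4 and Mlxipl were not called, and their smallest adjusted p under any alternative was 0.0892, for Slc2a5 without the samples with Y-linked counts.

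**Figure D1:**
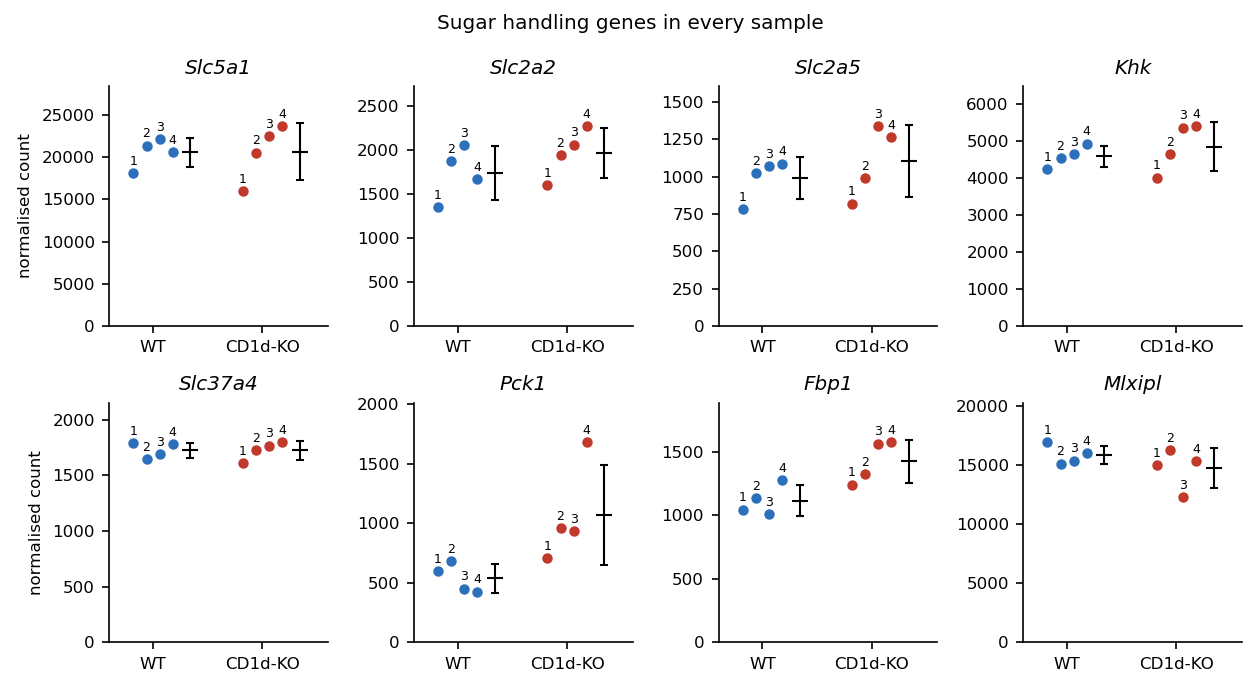
Normalised count (y axis, linear from 0) of each gene in WT (blue) and CD1d-KO (red) samples. Points are samples with their replicate number, and the black mark and bar are the mean and SD over 4 samples. The 4 CD1d-KO points of Pck1, 708.1 to 1680, lie above the 4 WT points, 425.4 to 682.2, while the groups overlap for the other genes.

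The upstream sequence of Pck1 and Fbp1 is shown because these are the 2 genes called. That of the liver and red cell pyruvate kinase gene Pklr, a classic ChREBP target that was lower in CD1d-KO, is shown because it holds a paired element of the kind ChREBP binds. Each is the 250 bases before the annotated start on the gene's strand (RefSeq, GRCm38.p6), 5′ to 3′. Capitals mark the letters ACGTCA (the core of the cyclic AMP response element), CACGTG (the E-box), TATAAA (the TATA box), or CACGNG and CNCGTG set 5 bases apart with the bases between them. Both strands were searched, and the motifs were chosen after the sequences were read. The Pck1 stretch is chr2:173152823-173153072 (plus strand), that of Fbp1 is chr13:62888283-62888532 (minus strand) and that of Pklr, before its second annotated start, is chr3:89136373-89136622 (plus strand).
Pck1: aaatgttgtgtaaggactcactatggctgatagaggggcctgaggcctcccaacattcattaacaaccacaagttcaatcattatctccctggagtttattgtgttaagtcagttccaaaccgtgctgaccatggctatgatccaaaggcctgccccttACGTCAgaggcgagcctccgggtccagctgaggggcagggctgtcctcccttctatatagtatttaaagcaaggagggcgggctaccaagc
Fbp1: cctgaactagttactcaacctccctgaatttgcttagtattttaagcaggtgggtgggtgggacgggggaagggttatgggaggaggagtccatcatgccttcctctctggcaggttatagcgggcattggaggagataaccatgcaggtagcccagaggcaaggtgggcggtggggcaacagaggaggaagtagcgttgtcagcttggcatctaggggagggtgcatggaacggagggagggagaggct
Pklr: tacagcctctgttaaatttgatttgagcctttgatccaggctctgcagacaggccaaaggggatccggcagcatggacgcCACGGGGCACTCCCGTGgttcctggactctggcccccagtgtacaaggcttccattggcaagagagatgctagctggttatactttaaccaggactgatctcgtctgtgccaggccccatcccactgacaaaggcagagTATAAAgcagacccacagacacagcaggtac
ACGTCA began 91 bases before the Pck1 start, and 6.47% of 32841 promoters of this length hold it. It was also found for Slc37a4, which was not called, beginning 61 and 214 bases before 2 of its annotated starts. Fbp1 held none of these letters in this window. In Pklr the paired element began 170 bases and TATAAA 31 bases before the start. The paired element was in 13 of the 32841 promoters, 0.0396%, and TATAAA in 12.4%. CACGTG was found in the same window of Slc5a1, Khk and the second annotated start of Mlxipl, beginning 143, 71 and 98 bases before the start, and in 6.02% of promoters.

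On the TPM scale, in which counts are corrected for transcript length and then for depth, the 8 genes spanned a wide range. Mean TPM over the 8 samples was 435 for Slc5a1, 343 for Mlxipl, 246 for Khk, 71.3 for Fbp1, 59.9 for Slc2a2, 55.3 for Slc37a4, 28.1 for Slc2a5 and 25.3 for Pck1. The glucose carrier, the sugar sensor and the fructose kinase were thus the abundant members, and the fructose carrier and Pck1 the scarce ones. Khk lay above Fbp1, and Slc37a4 above Slc2a5, in 8 of 8 samples with ranges that did not overlap. Slc5a1 also lay above Mlxipl in 8 of 8 samples, although their ranges overlapped. The other neighbours in this order overlapped, and Slc2a5 lay above Pck1 in only 5 of 8 samples. Triokinase (Tkfc), which acts later in fructose breakdown and was chosen after its values were seen, stood at a mean of 318 TPM.

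**Figure D2:**
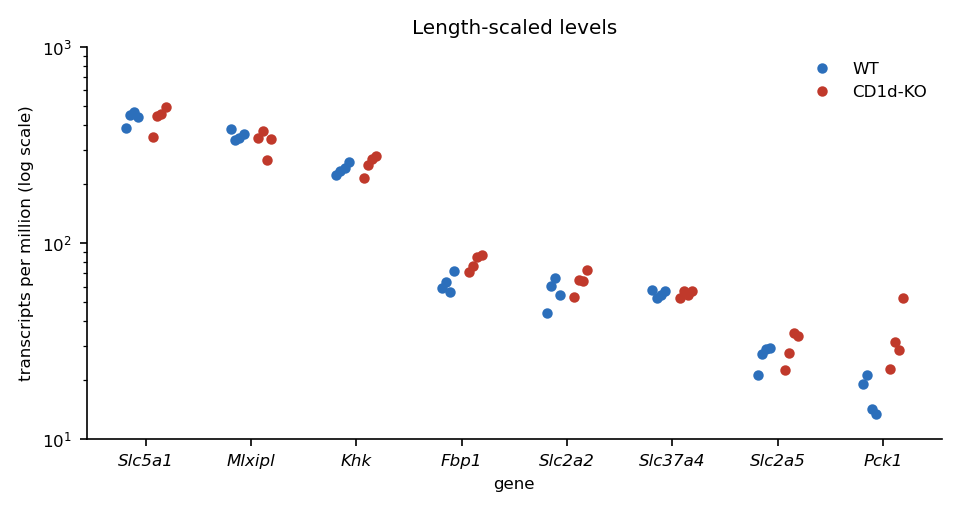
Level of each gene in TPM (y axis, log scale), ordered by mean, with 1 point per sample, WT in blue and CD1d-KO in red. Slc5a1 spans 346 to 495 and Pck1 13.5 to 52.3.

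Slc5a1 (mm10 chromosome 5, 33104219 to 33162699, plus strand), the apical sodium-glucose carrier, was read at normalised counts of 15982, 20536, 22457 and 23703 in replicates 1 to 4 of CD1d-KO and at 18147, 21380, 22104 and 20627 in those of WT. CD1d-KO 1 was the lowest of all and the groups overlapped. The log2 fold change, CD1d-KO over WT, was 0.01 ± 0.11 (SE; DESeq2 adjusted p = 0.99), with a 95% interval from -0.21 to 0.23.

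Slc2a2 (chromosome 3, 28697903 to 28728360, plus strand), the basolateral carrier, gave CD1d-KO normalised counts of 1601, 1940, 2061 and 2275, beside 1349, 1878, 2056 and 1671 for WT. The groups overlapped, with CD1d-KO 4 the highest and WT 1 the lowest. Genotypes differed by a log2 fold change that was 0.18 ± 0.13 (SE; DESeq2 adjusted p = 0.59; interval -0.08 to 0.44).

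Slc2a5 (chromosome 4, 150119344 to 150144168, plus strand), the fructose carrier, gave CD1d-KO normalised counts of 819, 991.5, 1340 and 1263, beside 782.5, 1024, 1069 and 1088 for WT. CD1d-KO 3 and 4 lay above every WT sample and CD1d-KO 1 and 2 did not. The log2 fold change was 0.16 ± 0.15 (SE; DESeq2 adjusted p = 0.727; interval -0.15 to 0.46), and 0.40 without the samples with Y-linked counts.

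Khk (chromosome 5, 30921559 to 30931248, plus strand), which commits fructose to breakdown, gave CD1d-KO normalised counts of 3998, 4628, 5349 and 5397, beside 4228, 4520, 4639 and 4922 for WT. As for Slc2a5, CD1d-KO 3 and 4 were the highest and CD1d-KO 1 was low, here the lowest of all. Its log2 fold change stood at 0.08 ± 0.10 (SE; DESeq2 adjusted p = 0.804; interval -0.11 to 0.28). The intervals of these 4 genes, which hold for the fit with genotype alone, leave out a change of 1 on the log2 scale in either direction. With the stomach score beside genotype, the log2 fold changes were larger and not called, at 0.32 for Slc5a1, 0.62 for Slc2a2, 0.57 for Slc2a5 and 0.33 for Khk.

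The lowest sample of Slc5a1 and of Khk, CD1d-KO 1, was also the lowest by the summed normalised counts of 20 enterocyte markers, at 190418 against 195210 to 303464 in the others, and the highest by the sum of 11 stem and transit amplifying markers, at 315088 against 206759 to 302992. Of these markers, 1 enterocyte gene and 0 stem or transit amplifying genes were called. By the enterocyte sum WT 4 came next, at 195210, yet it had the highest Khk of the WT samples, 4922, and Slc5a1 at 20627. WT 1, at 208685, had the lowest WT values of both genes, 4228 for Khk and 18147 for Slc5a1. The part of crypt cell makeup in the carriers' values was not tested.

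Slc37a4 (chromosome 9, 44396927 to 44402968, plus strand), which feeds glucose-6-phosphate to glucose-6-phosphatase, had the smallest relative spread of the 8 within each genotype, with CD1d-KO normalised counts of 1607, 1726, 1767 and 1795, beside 1786, 1648, 1690 and 1779 for WT. The groups overlapped throughout. Its log2 fold change was -0.0017 ± 0.07 (SE; DESeq2 adjusted p = 0.997; interval -0.13 to 0.13). It shares 1133 bases with an annotated transcript of its neighbour Trappc4, so part of its count is uncertain.

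Pck1 (chromosome 2, 173153073 to 173159274, plus strand), which makes phosphoenolpyruvate from oxaloacetate, gave CD1d-KO normalised counts of 708.1, 959.1, 935.5 and 1680, beside 600.8, 682.2, 451.8 and 425.4 for WT. Every CD1d-KO sample lay above every WT sample, a pattern held by 4.09% of tested genes. CD1d-KO 4 stood far above the other 3, and the nearest samples of the groups, CD1d-KO 1 and WT 2, were close. CD1d-KO averaged 1071 ± 422 (SD, n = 4), and WT 540.1 ± 122. The fold was 1.98 with a 95% interval from 1.30 to 3.03, and the log2 fold change 0.99 ± 0.31 (SE; DESeq2 adjusted p = 0.0431). The direction held in all 16 alternatives but the call in 7, and edgeR gave an adjusted p of 0.0718. Leaving out a sample ended the call in 5 of 8 cases, with a DESeq2 adjusted p of 0.142 without CD1d-KO 2, 0.0752 without CD1d-KO 3, 0.106 without WT 1, 0.170 without WT 3 and 0.154 without WT 4. Without CD1d-KO 4 the log2 fold change was 0.68 and the DESeq2 adjusted p 0.00409. With both Y-linked samples removed it was 1.28, with a DESeq2 adjusted p of 0.0148, in a fit that called 2.57% of the genes it tested.

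Fbp1 (chromosome 13, 62864753 to 62888282, minus strand), which removes a phosphate from fructose-1,6-bisphosphate, gave CD1d-KO normalised counts of 1240, 1322, 1563 and 1571, beside 1044, 1132, 1007 and 1276 for WT. The groups overlapped by a single pair, CD1d-KO 1 below WT 4. CD1d-KO averaged 1424 ± 168 (SD, n = 4), and WT 1115 ± 120, a fold of 1.28 and a 95% interval from 1.11 to 1.48. The log2 fold change was 0.35 ± 0.11 (SE; DESeq2 adjusted p = 0.0287), again higher in all 16 alternatives and called in 9, with an edgeR adjusted p of 0.106. Leaving out a sample ended the call in 5 of 8 cases, with a DESeq2 adjusted p of 0.0953 without CD1d-KO 3, 0.120 without CD1d-KO 4, 0.119 without WT 1, 0.0989 without WT 2 and 0.129 without WT 3. Without the samples with Y-linked counts the log2 fold change was 0.49 and the DESeq2 adjusted p 0.00144.

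With the stomach gene score beside genotype, the log2 fold change was 1.33 for Pck1 and 0.49 for Fbp1 and neither was called, at DESeq2 adjusted p-values of 0.459 and 0.327. That score ran from -2.68 to 0.22 in CD1d-KO and from 0.78 to 3.50 in WT, so it and genotype cannot be told apart well.

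**Figure D3:**
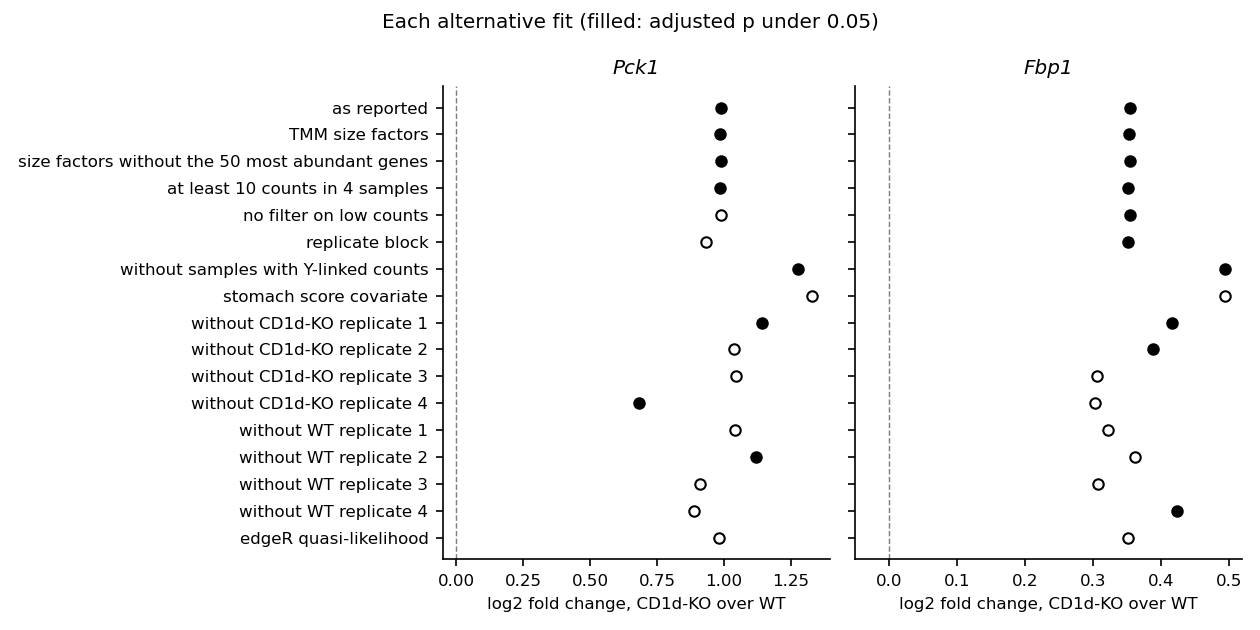
Log2 fold change, CD1d-KO over WT (x axis), of Pck1 (left) and Fbp1 (right) as reported and under each of the 16 alternatives (y axis). Filled points have an adjusted p under 0.05 and open points do not. Every point lies above 0, and 7 alternatives for Pck1 and 9 for Fbp1 are filled.

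Mlxipl (chromosome 5, 135089890 to 135138201, plus strand), the sugar-responsive transcription factor, gave CD1d-KO normalised counts of 15041, 16266, 12317 and 15328, beside 16934, 15135, 15398 and 16026 for WT. CD1d-KO 3 was the lowest and the other samples lay close together. Its log2 fold change was -0.11 ± 0.09 (SE; DESeq2 adjusted p = 0.635; interval -0.28 to 0.06). Its partner Mlx and the related Mlxip, both chosen after their values were seen, had log2 fold changes of -0.08 (DESeq2 adjusted p = 0.76) and 0.10 (DESeq2 adjusted p = 0.751), and Mlx overlaps Psmc3ip on the other strand.

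**Figure D4:**
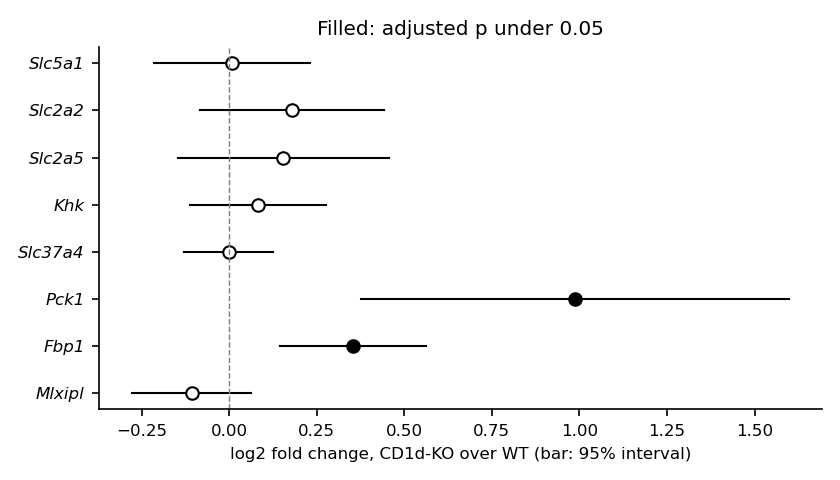
Log2 fold change, CD1d-KO over WT (x axis), of each of the 8 genes (y axis) with its 95% interval as a bar. Filled points, Pck1 at 0.99 and Fbp1 at 0.35, have a DESeq2 adjusted p under 0.05, and the intervals of the other 6 genes cross 0.

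Most genes of the wider pathways were not called. Over 135 tested genes of 9 lists around the 8 genes, 11 were called (8.15%), 6 higher and 5 lower in CD1d-KO, beside 4.03% of all tested genes. The median log2 fold change of all tested genes was 0.00. Using edgeR, 4 of the 131 it tested were called (3.05%), which were Pcx, Pfkfb3, Pklr and Sord, and with CD1d-KO 2 left out DESeq2 called 6. With the stomach score beside genotype, all 11 lost their calls. Sord then had a log2 fold change of 0.19 (DESeq2 adjusted p = 0.757), Pklr -0.17 (0.803), Pfkfb3 -0.53 (0.32) and Pcx -0.46 (0.374).

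Glycolysis and its control had 3 of 26 tested genes called, all lower, with a list median of -0.03. Pfkfb3, which makes the activator of phosphofructokinase, had normalised counts of 365.7 to 420.5 in CD1d-KO and 529.2 to 692.7 in WT (log2 fold change -0.66, DESeq2 adjusted p = 1.14e-07). Pklr, the last enzyme of glycolysis and the promoter shown above, had 4234 to 5276 in CD1d-KO and 5665 to 6669 in WT (-0.40, DESeq2 adjusted p = 0.000518), and was not called without the samples with Y-linked counts (0.0575). An annotated transcript of its neighbour Hcn3 shares 1239 bases with it. Hk2, a hexokinase, had 2163 to 2637 in CD1d-KO and 2742 to 3354 in WT (-0.34, DESeq2 adjusted p = 0.00457), and edgeR did not call it (0.053). The groups did not overlap for any of the 3, but the share of all tested genes with every CD1d-KO sample below every WT sample was not computed.

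Gluconeogenesis and glucose release, apart from the 8 genes, had 2 of 19 tested genes called, in opposite directions, with a list median of -0.02. Pcx, pyruvate carboxylase, which supplies the oxaloacetate used by Pck1, was lower, at 414.3 to 504.2 in CD1d-KO and 628.4 to 710.5 in WT (log2 fold change -0.49, DESeq2 adjusted p = 2.2e-05; edgeR 0.0141). Lrfn4, on the other strand, overlaps it and strand was not used in counting. Glud1, which makes 2-oxoglutarate from glutamate, was higher by 0.24 (DESeq2 adjusted p = 0.0437; edgeR 0.139), but it has near-identical copies and was not called in 6 of 8 fits with a sample removed, all but those without CD1d-KO 1 and WT 4, with adjusted p-values up to 0.210. G6pc, glucose-6-phosphatase, gave CD1d-KO normalised counts of 446.1, 655.3, 594.3 and 801.7, beside 358.3, 469.5, 528.4 and 458.5 for WT. Its log2 fold change of 0.46 was not called (DESeq2 adjusted p = 0.103), and removing both Y-linked samples gave 0.62 (adjusted p = 0.0138). Without CD1d-KO 1 alone it was 0.59 (DESeq2 adjusted p = 0.00479), and with the stomach score beside genotype it was 1.06 (0.00541), the 1 pathway gene called in that fit. It was not called by edgeR (0.209).

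The fructose and polyol enzymes had 2 of 10 tested genes called, both higher, with a list median of 0.13. Sord, which turns sorbitol into fructose, had 4060 to 4930 in CD1d-KO and 2940 to 3687 in WT (log2 fold change 0.47, DESeq2 adjusted p = 2.62e-05; edgeR 0.0159), and a copy, Gm6652, is 98.98% identical over 1074 bases. Aldh1b1, a mitochondrial aldehyde dehydrogenase, was higher by 0.22 (DESeq2 adjusted p = 0.0226; edgeR 0.122) and lost its call when any of CD1d-KO 1 and 2 and WT 1, 2 and 3 was removed, at adjusted p-values of 0.0547 to 0.121. Tkfc, with a log2 fold change of 0.07 (DESeq2 adjusted p = 0.799), was not called.

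Of the other sugar carriers, 1 of 17 tested was called and the list median was -0.05. Slc5a4b, a relative of Slc5a1, gave CD1d-KO normalised counts of 167.2, 274.3, 439.9 and 456, beside 158.1, 171.9, 146.4 and 133.3 for WT. The higher values were in CD1d-KO 3 and 4, and CD1d-KO 1 lay below WT 2. The log2 fold change was 1.13 (DESeq2 adjusted p = 0.000842). It was not called by edgeR (0.0644), without WT 1 (DESeq2 adjusted p = 0.0975) or with the stomach score beside genotype (DESeq2 adjusted p = 0.0918). Without the samples with Y-linked counts the log2 fold change was 1.55 and the DESeq2 adjusted p 3.19e-17. That fit kept only CD1d-KO 3 and 4, the samples with the higher values, beside all WT samples. Of the Slc5a4b bases, 247 are 95.95% identical to Gm19217. The glucose carrier Slc2a1, chosen after its values were seen, had a log2 fold change of -0.18 (DESeq2 adjusted p = 0.41).

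The galactose pathway had 2 of 8 tested genes called, both higher, with a list median of 0.08. Pgm1, a phosphoglucomutase, was higher by 0.29 (DESeq2 adjusted p = 0.0164; edgeR 0.0788) and Galm, which interconverts the forms of galactose, by 0.22 (DESeq2 adjusted p = 0.0493; edgeR 0.125). Pgm1 lost its call when any of CD1d-KO 1 and 2 and WT 1 and 4 was removed (adjusted p-values 0.0671 to 0.132), and Galm in 7 of 8 such fits, all but the fit without CD1d-KO 1 (0.0753 to 0.240). Neither was called by edgeR or without the samples with Y-linked counts.

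Of the Mondo and Mlx network, 1 of 23 tested genes was called, Pklr, and the list median was 0.01. Its other named targets were not called: Fasn, for fatty acid synthesis, had a log2 fold change of -0.17 (DESeq2 adjusted p = 0.142) and Txnip, a classic sugar-induced gene chosen after its values were seen, 0.26 (DESeq2 adjusted p = 0.253). Of the regulators, 1 of 24 was called. It was the coactivator Ppargc1b, with a log2 fold change of -0.30 (DESeq2 adjusted p = 0.0147), which was not called without CD1d-KO 2 (0.0635), without the samples with Y-linked counts (0.0761) or by edgeR (0.0764).

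The sodium pump and sweet taste genes had 0 of 9 tested genes called by DESeq2 or by edgeR and 3 with an unadjusted p under 0.05. The disaccharidases, which split sugars at the brush border, had 0 of 4 called by either tool and 2 with an unadjusted p under 0.05. Of all 15446 genes tested by DESeq2, 2357 had an unadjusted p under 0.05. In the sodium pump and sweet taste list, the sodium-proton exchanger Slc9a3 had a log2 fold change of -0.68 (DESeq2 adjusted p = 0.071). In the disaccharidase list, sucrase-isomaltase (Sis) had 0.22 (0.304), trehalase (Treh) 0.35 (0.185) and lactase (Lct) 0.15 (0.869).

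**Figure D5:**
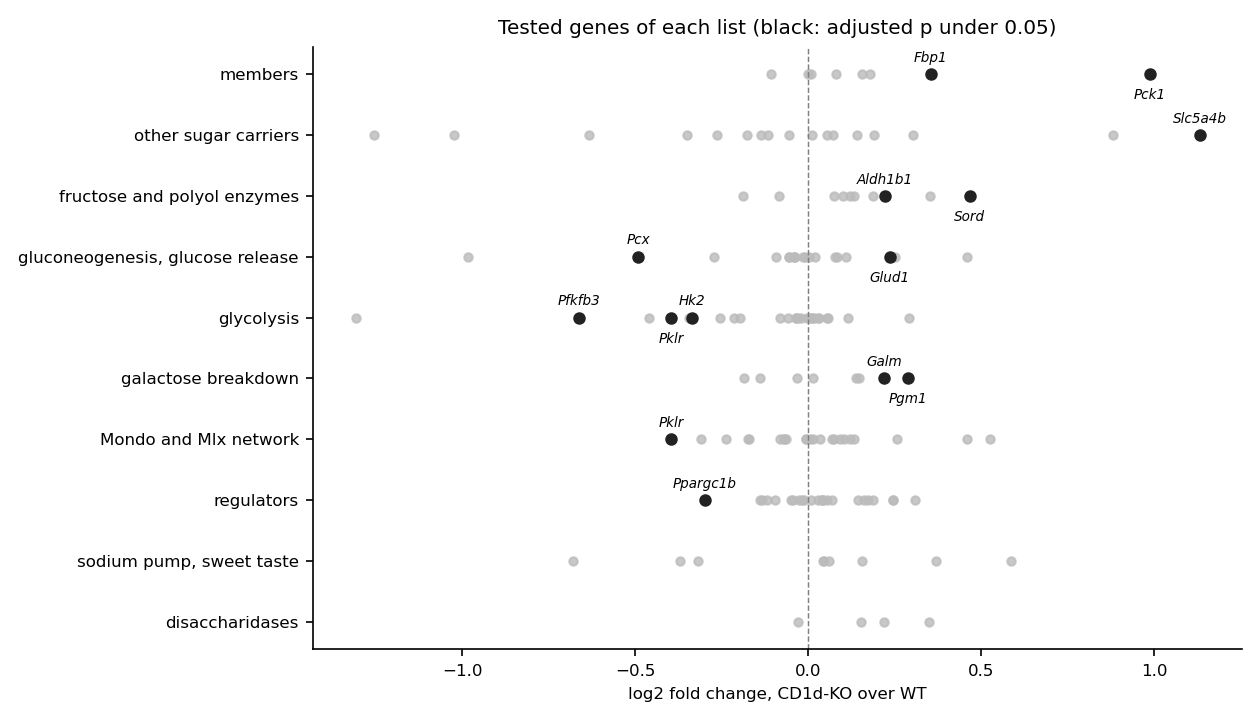
Log2 fold change, CD1d-KO over WT (x axis), of every tested gene of each list (rows). Black points, named, have a DESeq2 adjusted p under 0.05 and grey points do not. Pck1 at 0.99 and Slc5a4b at 1.13 are the called genes farthest to the right, and Pfkfb3 at -0.66 the farthest to the left.

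The genes whose normalised counts moved most like each of the 8 across samples were found by Pearson's r on the log2 scale over 8 samples, among 11721 genes. They were Srek1ip1 for Slc5a1 (0.984), Pacsin2 for Slc2a2 (0.981), Ccnh for both Slc2a5 (0.982) and Khk (0.989), Nol8 for Slc37a4 (0.947), Nat8f1 for Pck1 (0.965), Eny2 for Fbp1 (0.966) and Zfp653 for Mlxipl (0.953). The second for Fbp1 was Glud1 (0.965). These values describe 8 samples that share 2 genotypes, and no p was computed for them.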

How the data were processed

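The authors deposited raw fragment counts per gene with no normalization. Per the file headers, featureCounts 1.6.4 counted pairs by gene over its exons, from primary alignments and without strand, so genes with near-identical copies or overlapping neighbours are uncertain. The header names an mm10 annotation, while the study's methods and the submitters' processing notes name HISAT2 and GRCm39. Coordinates are those of the table. Libraries were poly(A) (KAPA mRNA kit).

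The genotypes were compared using the study's tool, DESeq2 1.42.0 in R 4.3.3, with genotype as the only term and Benjamini-Hochberg adjustment over 15446 genes. Independent filtering (mean normalised count 2.41) and Cook's rule left 3642 genes with a count without an adjusted p. Errors are SE for log2 fold changes and SD over 4 samples for counts, and intervals are 95%. TPM were computed from counts and exon lengths. Alternatives were edgeR 4.0.16, TMM factors, size factors without the 50 most abundant genes, a minimum of 10 counts in 4 samples, no filter, the replicate block, the stomach score, the samples without Y-linked counts and leaving out each sample. The steps were tested on simulated counts with known changes. Fold changes were recovered, but the share of false calls of DESeq2 was above its nominal rate in every draw, and that of edgeR was nearer to it. DESeq2 was kept as the main test because the design had been set, and edgeR's value stands beside calls near the threshold.

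Samples of the same genotype differed by a chi-square of 9.75 to 37.2 for each degree of freedom over 13710 genes, so no pair agreed within sampling noise. Total counts were 23610266 to 31629435, and reads without molecular identifiers cover counting error only. The 8 genes and the lists were chosen with earlier results of these data known. All 8 were named, and from each list the called genes and otherwise up to 3 with the smallest unadjusted p could be named. Copies were searched at 90% identity over 200 bases in GENCODE transcripts. The table had 0 unused columns of samples. 1 gene of the lists is not reported here.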

Additional observations from a re-analysis of the deposited data

Results flagged for a closer look

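Among 78 groups of 4 samples, for 39 genes in each genotype, 3 held a sample apart from the rest by Dixon's criterion, where chance gives about 1 in 20. WT 1 was low for Galm, at a normalised count of 3470.5 against 3885 to 3948 in the other WT samples. WT 4 was high for Glud1, at 14098.5 against 11883 to 12239. WT 1 was low for Pklr, at 5664.72 against 6520 to 6669. None of the 8 sugar handling genes was among them.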

How the results depend on the processing

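Each of the 8 genes was refitted under 16 alternatives. Pck1 (log2 fold change 0.99) lost its call with no filter on low counts (0.99, adjusted p = 0.0532), with the stomach score (1.33) and by edgeR (0.98), and ranged from 0.68 to 1.14 when a sample was left out. Fbp1 (0.35) lost its call with the stomach score (0.49) and by edgeR (0.35), and ranged from 0.30 to 0.42. The count of genes called, 2 of 8, was 1 with no filter, 0 with the stomach score, 0 by edgeR and 0 to 2 when a sample was left out, with 0 without CD1d-KO 3, WT 1 or WT 3. The count of pathway genes called, 11 as reported, was 1 with the stomach score (G6pc, not among the 11), 4 by edgeR and 6 to 14 when a sample was left out. Some uncalled changes turned sign: Slc5a1 ranged from -0.065 to 0.11 and Slc37a4 from -0.023 to 0.033 when a sample was left out, Slc37a4 was 0.053 with the stomach score and 0.047 without the samples with Y-linked counts, and Lct from -0.022, without CD1d-KO 4, to 0.33. Mlx was 0.028 and 0.083, and Mlxip -0.10 and -0.18, without the samples with Y-linked counts and with the stomach score, and Trpm5, at -0.37 as reported, was 0.14 with the score. The cause was not tested. Over all genes, 622 were called as reported, 228 by edgeR, 103 with the stomach score, 372 without the samples with Y-linked counts and 323 without CD1d-KO 2.

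Whether the labels' replicate numbers pair the samples was not settled. Deviations of same-numbered samples correlated at 0.285, 0.025, 0.221 and 0.004 over 11721 genes. The WT sample most like CD1d-KO 1 was WT 1 and that most like CD1d-KO 3 was WT 3. For CD1d-KO 2 and 4 it was WT 1 and WT 3, which bear other numbers. With the replicate block, Slc5a1 was -0.0045, Pck1 was 0.93 (adjusted p = 0.176), Fbp1 stayed called (adjusted p = 0.00997), 1 of the 8 genes was called and 21 pathway genes were, G6pc among them (adjusted p = 0.022).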
